A study of Rattus norvegicus with 20 samples.

Results

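The genes of the growth hormone and insulin-like growth factor axis were examined in femur RNA of 4 rat strains that differ in a segment of chromosome 4. The 10 genes are Ghrhr, Ghr, Igf1, Igf2, Igf1r, Igf2r, Igfbp3, Igfbp4, Igfbp5 and Igfbp6, and every probe set whose gene symbol was exactly one of these names was taken. This gave 25 of the 31042 probe sets on the array that are not controls. Of the 25, 19 passed the filter on low signal and were tested, with at least 1 for each of the 10 genes, and 6 did not pass it. The rule uses gene names and no signals, but the 10 genes were chosen with earlier results of these data known. A probe set is a group of short probes that read the transcripts of 1 gene, and its MAS5 signal is a linear intensity that the authors scaled to the same level on every array.

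RNA came from 5 rats of each strain, all 4 weeks old, and each rat had its own Affymetrix rat expression array. NP.P rats are congenic, with the chromosome 4 segment of the P strain on the NP background. P.NP rats are the reciprocal congenic strain, with the NP segment on the P background. P is the inbred alcohol-preferring strain and NP the inbred alcohol-nonpreferring strain, and both congenic strains were made from these parents by repeated backcrossing followed by an intercross. The labels name the proximal femur and the methods the femur, the methods describe male rats, with no sex in the labels of the arrays, and each congenic strain is a single line. No rat received a treatment. Whole bone was extracted: 6 of 8 osteoblast and bone matrix genes had a probe set, all above the filter, with a mean signal of 75826 for Col1a1 and 59232 for Bglap, and muscle genes were also abundant, with 71848 for Acta1. Pairs of arrays correlated with an r between 0.947 and 0.980, the median signal of an array lay between 291.9 and 322.3, and no array duplicated another.

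Growth hormone releasing hormone from the hypothalamus acts on its receptor, the product of Ghrhr, on pituitary cells, which then secrete growth hormone. Growth hormone binds the receptor encoded by Ghr in liver, growth plate and bone, and one of its main target genes is Igf1. The ligands encoded by Igf1 and Igf2 signal through the kinase receptor Igf1r, the receptor encoded by Igf2r takes up and clears IGF2, and the binding proteins Igfbp3 to Igfbp6 carry the ligands and set how much is free. In bone this axis is known for its role in longitudinal growth and in the accrual of bone mass. Ghrhr is the only one of the 10 genes in the chromosome 4 region that was moved between strains, which holds a quantitative trait locus (QTL) for alcohol preference: Igf2, Igf1r and Igf2r are on chromosome 1, Ghr on 2, Igf1 and Igfbp6 on 7, Igfbp5 on 9, Igfbp4 on 10 and Igfbp3 on 14. The segment therefore differed between strains at Ghrhr itself, while the other 9 genes came with the background strain.

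The sequence before the RefSeq start sites is printed for Ghrhr, the gene inside the segment, and for Igfbp4, the member with the smallest adjusted p between the backgrounds, in lower case on the plus strand of the reference build GRCr8, with any match to a searched motif in capitals. The first Ghrhr window, chr4:85830236-85830344, is printed only as far as the annotated gene's first base, and the second, chr4:85849655-85849904, lies before a start inside the gene. The Igfbp4 window is chr10:84491221-84491470.
Ghrhr, first start: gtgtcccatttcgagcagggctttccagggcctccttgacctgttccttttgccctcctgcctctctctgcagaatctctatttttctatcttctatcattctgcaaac
Ghrhr, second start: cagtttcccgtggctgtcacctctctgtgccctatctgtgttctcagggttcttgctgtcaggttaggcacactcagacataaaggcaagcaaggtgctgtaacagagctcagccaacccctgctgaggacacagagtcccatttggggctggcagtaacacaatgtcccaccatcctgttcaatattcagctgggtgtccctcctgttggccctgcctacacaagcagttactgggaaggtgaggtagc
Igfbp4: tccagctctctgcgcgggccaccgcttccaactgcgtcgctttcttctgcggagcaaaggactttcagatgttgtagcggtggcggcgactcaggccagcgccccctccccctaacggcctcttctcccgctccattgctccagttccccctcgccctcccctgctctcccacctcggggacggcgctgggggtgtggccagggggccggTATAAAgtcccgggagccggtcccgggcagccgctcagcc
The reference rat is neither P nor NP, so base differences between these strains are not shown. The motifs searched on both strands were ATGNATA, the core bound by the pituitary factor POU1F1, the TATA box TATAAA and the E-box CACGTG, in the 250 bases before each start; matches of different motifs were counted apart and could overlap. POU1F1 cores were in 8.73% of 33469 such windows, TATA boxes in 12.9% and E-boxes in 5.59%. Neither Ghrhr window of 250 bases held any of these motifs, and the Igfbp4 window held 1 TATA box, shown in capitals. Among the other members, E-boxes were found 1 time before Igf1r and 2 times before Igf2r.

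Ghrhr had the higher signal in the strains with the P segment on one of its 2 probe sets. On probe set 1369494_a_at the signals were 397, 379, 358, 343 and 459 in NP.P rats. In P.NP rats they were 256, 237, 200, 367 and 334. In P rats they were 308, 461, 568, 432 and 415, and in NP rats 261, 352, 325, 193 and 227. Of the 10 rats with the P segment, all but P replicate 1 and NP.P replicates 3 and 4 were above every rat with the NP segment, and no pair of strains was fully separated. The mean was 387 ± 45.1 in NP.P, 279 ± 69.6 in P.NP, 437 ± 93.2 in P and 272 ± 66.4 in NP rats (SD, n = 5 each). In order of mean signal P came first, then NP.P, P.NP and NP, and the ranges of P and NP.P overlapped, as did those of P.NP and NP. The F test over the 4 strains, with Benjamini-Hochberg adjustment over all 18625 tested probe sets and a threshold of 10%, gave an adjusted p of 0.0253. Averaged over both backgrounds, the signal was 1.51 times as high with the P segment as with the NP segment (log2 difference 0.60, SE 0.13, adjusted p = 0.0541).

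**Figure D1:**
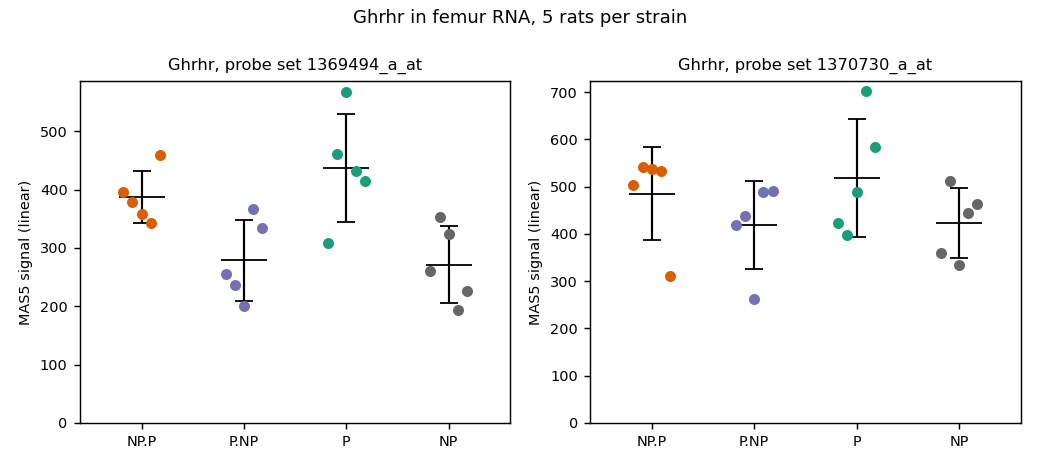
Ghrhr in femur RNA. The vertical axis is the linear MAS5 signal of each of the 2 probe sets, each point is 1 rat, and the horizontal line and bars are the mean and SD of 5 rats per strain; on 1369494_a_at the means of NP.P and P are 387 and 437 and those of P.NP and NP are 279 and 272, while on 1370730_a_at all 4 ranges overlap.

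Set pair by pair, the same Ghrhr probe set was higher in P than in NP rats (log2 difference 0.69, SE 0.19, adjusted p = 0.0444). NP.P minus NP was 0.54 (95% interval 0.15 to 0.93, adjusted p = 0.183), which did not pass the threshold. P.NP minus P was -0.66 (95% interval -1.05 to -0.27, adjusted p = 0.282), which did not pass either. All 3 values had the sign of the segment, but P minus NP shares the NP arrays with NP.P minus NP and the P arrays with P.NP minus P. When adjustment was made over the 383 tested probe sets of the QTL region alone, the adjusted p was 0.0808 for NP.P minus NP, 0.0594 for P.NP minus P, 0.0374 for P minus NP and 0.00419 for the segment. The region was taken here as the reference span from Arf5 to Ppp4r2, genes that the paper lists in it. The paper bounds the moved segment by flanking markers, so its probe sets can differ from these. The background difference was 0.10 (95% interval -0.18 to 0.37, adjusted p = 0.673), and the interaction of segment and background was 0.12 (SE 0.26, adjusted p = 0.935).

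The Ghrhr segment difference was 0.55 without P replicate 3, the highest signal (adjusted p = 0.108), and 0.57 without P.NP replicate 2 (adjusted p = 0.1), so that either array ended the call while the difference stayed of like size. With no filter on low signal the adjusted p was 0.142. P minus NP gave 0.125 without NP replicate 4, 0.106 without NP replicate 5 and 0.124 without P replicate 3. Fitted on P and NP arrays alone its adjusted p was 0.12, and with the methods' t-test 0.226, so these also ended the call.

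The second Ghrhr probe set, 1370730_a_at, showed no difference that passed a test. Its signals were 502, 542, 538, 532 and 311 in NP.P rats and 419, 437, 262, 488 and 490 in P.NP rats. They were 422, 398, 489, 701 and 584 in P rats and 359, 512, 335, 444 and 463 in NP rats. All 4 ranges overlapped. The segment difference was 0.25 (95% interval -0.04 to 0.54, adjusted p = 0.53), with the same sign as on the first probe set, and the F test gave an adjusted p of 0.564. Over the 20 arrays the log2 values of both probe sets correlated with r = 0.394, and they read the same RNA samples. Which part of the transcript each probe set reads, and whether P and NP alleles differ in sequence under the probes, was not tested.

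The pituitary, where Ghrhr is best known, left little signal in these samples. Of 7 pituitary markers only Lhb passed the filter. Gh1 averaged a signal of 96.5, and Prl, Pomc, Cga, Tshb and Pou1f1, at 18.4 to 88.1, were also below the filter signal of 169.7. The level of the list therefore rested on Lhb alone. The centred log2 signal of Lhb ran from 0.03 to 0.21 in NP.P and from -0.42 to -0.16 in P.NP rats. It ran from -0.29 to 0.42 in P and from -0.52 to 0.36 in NP rats. The part of pituitary RNA in the Ghrhr result was not tested.

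The neighbours of Ghrhr were read to see whether they moved with the segment as well. Aqp1, the water channel gene directly before Ghrhr in the reference order, was higher with the P segment (log2 difference 0.28, SE 0.05, adjusted p = 0.0209). The others that passed the filter, Nod1, Ggct, Gars1, Mindy4, Lsm5 and Avl9, had segment differences between -0.07 and 0.11 and adjusted p from 0.65 to 0.971. Inmt, Adcyap1r1, Neurod6, Ppp1r17 and Pde1c, the remaining genes of the 6 on each side, did not pass the filter. The genes most like Ghrhr 1369494_a_at over the 20 arrays, by Pearson's r of log2 signal, were Mtmr10 (0.776), Mamdc4 (0.758), Lrrc26 (0.694), Ankrd13b (0.694), Lrrc61 (0.665) and Rabep1 (0.664), of which only Lrrc61 is in the QTL region. The most opposite were Rasa1 (-0.73), Stx6 (-0.727), Il16 (-0.718), Ncoa6 (-0.717), Ccn5 (-0.714) and Gucy1b1 (-0.69).

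Over all members, 7 of the 19 tested probe sets, from 6 genes, passed the F test over the 4 strains, against 18.2% of all tested probe sets. In P minus NP 2 of 19 passed, against 5.36% of all, and in NP.P minus NP 2 of 19, against 2.3%. In P.NP minus P none of 19 passed in limma, against 0.231% of all, and the methods' t-test also called none after adjustment. An unadjusted p under 0.05 was reached by 4 of 19 in limma and by 4 in the methods' t-test. The share of all tested probe sets at that unadjusted cut was not computed, so these counts cannot be set against it. For P segment minus NP segment 1 of 19 passed (0.886% of all), for P background minus NP background 2 of 19 (22.5% of all), and for the interaction of segment and background 1 of 19 (0.317% of all). The median log2 difference of the 19 was 0.02 in NP.P minus NP, -0.07 in P.NP minus P and 0.09 in P minus NP, where the median of all tested probe sets was -0.01, 0.00 and 0.00. The strains did not overlap for 3 of the 19 in NP.P minus NP (3.28% of all tested probe sets), 2 of 19 in P.NP minus P (1.73% of all) and 1 of 19 in P minus NP (4.71% of all). Probe sets of 1 gene read the same transcript family in the same RNA and are not independent of each other.

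**Figure D2:**
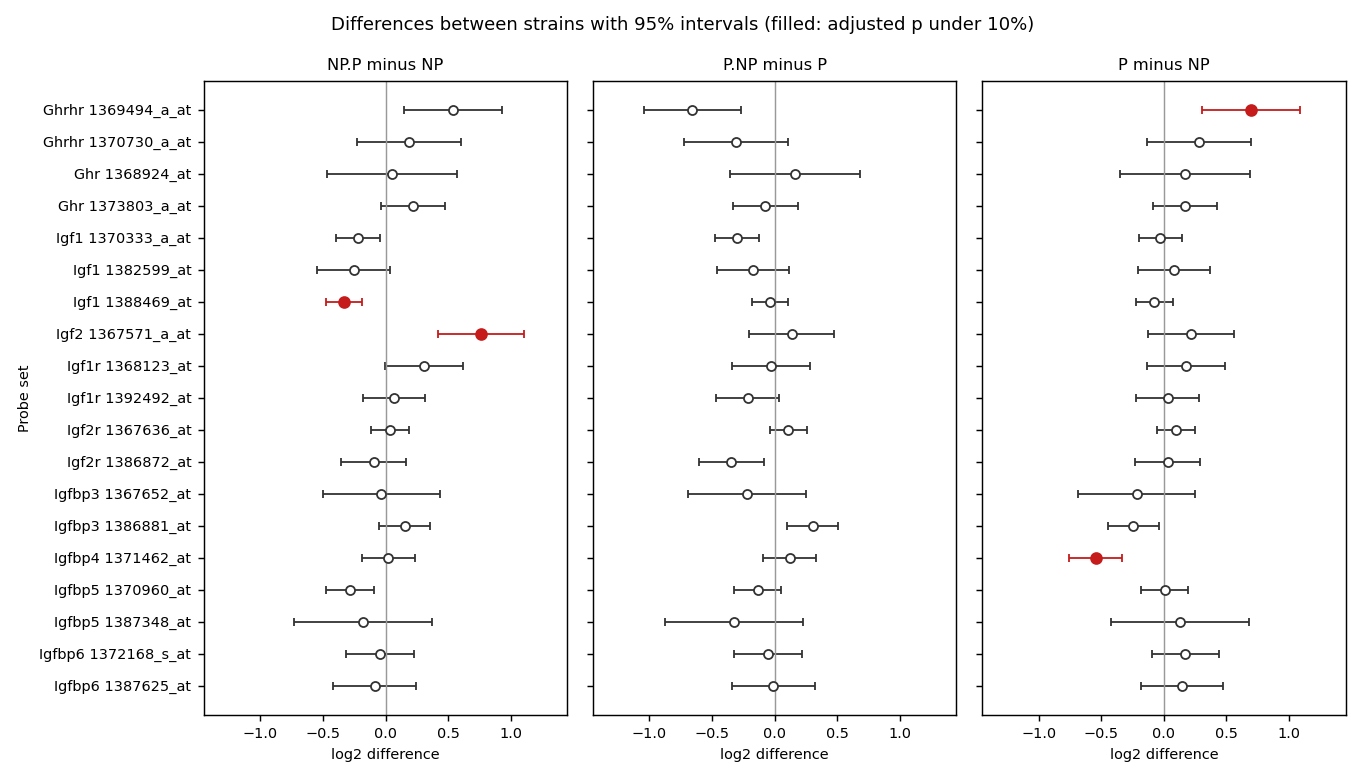
Log2 differences of the 19 tested probe sets in NP.P minus NP, P.NP minus P and P minus NP. Points are fitted differences and bars their 95% intervals over 20 arrays; filled red points passed the 10% threshold, which are Igf1 1388469_at and Igf2 in the first panel, none in the second, and Ghrhr 1369494_a_at and Igfbp4 in the third.

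Ghr, which encodes the growth hormone receptor, passed no test on its 2 probe sets. Probe set 1373803_a_at averaged 818 ± 90.6 in NP.P, 749 ± 71.7 in P.NP, 790 ± 94.3 in P and 711 ± 154 in NP rats (F test, adjusted p = 0.547). NP replicate 2 was its highest array at 984, and without it the adjusted p of the F test was 0.0916. Probe set 1368924_at averaged between 179.6 and 224 in the 4 strains, near the filter signal (adjusted p = 0.715). Its NP.P minus NP difference had a 95% interval of -0.47 to 0.57, so a change of that size in either direction was within the error.

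Igf1, the growth hormone target that acts on growth plate and osteoblasts, fell in NP.P rats, against NP rats, on 1 of its 3 probe sets. On 1388469_at the signals were 4832, 4670, 4381, 3902 and 4191 in NP.P rats, against 5649, 5783, 4832, 5707 and 5706 in NP rats. The groups did not overlap, although the highest NP.P signal was level with NP replicate 3, which stood below the other NP rats. In P.NP rats the signals were 5411, 5121, 4677, 5237 and 5166, against 5106, 5450, 5320, 5188 and 5160 in P rats. NP.P thus had the lowest mean, at 4395 ± 371, and P.NP, P and NP averaged 5122 ± 272, 5245 ± 139 and 5535 ± 396 (SD, n = 5 each), with ranges that overlapped. The log2 difference of NP.P minus NP was -0.33 (SE 0.07, adjusted p = 0.0299), a signal 0.793 times that of NP. P.NP minus P was -0.04 (95% interval -0.18 to 0.11, adjusted p = 0.967). Fitted on NP.P and NP arrays alone, the first difference had an adjusted p of 0.185, and with the methods' t-test 0.224.

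The Igf1 probe set 1370333_a_at also differed among the strains (F test, adjusted p = 0.0248). Its signals were 10062, 10125, 9572, 7676 and 8357 in NP.P rats and 8734, 8661, 7675, 8736 and 8514 in P.NP rats. They were 11586, 11118, 9639, 9928 and 9889 in P rats and 10547, 10338, 11126, 9747 and 11379 in NP rats. Every P.NP rat was below every P rat, while NP.P and NP rats overlapped. NP.P minus NP was -0.22 (SE 0.08, adjusted p = 0.23) and P.NP minus P was -0.30 (SE 0.08, adjusted p = 0.272), so neither congenic strain passed against its own background strain, and P minus NP was -0.03 (95% interval -0.20 to 0.15). The effect of the P segment differed between the backgrounds, being higher on the P background by 0.52 (SE 0.12, adjusted p = 0.0945). This last call was lost when any 1 of 17 arrays was left out, with adjusted p up to 0.171. It was also lost with no filter, at 0.229, and with the replicate number as a block, at 0.102. The dimmer Igf1 probe set 1382599_at averaged 460.2 ± 82.8 in NP.P, 515 ± 85.5 in P.NP, 576 ± 58.0 in P and 546 ± 78.1 in NP rats and passed no test (F test, adjusted p = 0.307), with -0.26 in NP.P minus NP and -0.17 in P.NP minus P.

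Igf2, the ligand best known from fetal growth and an imprinted gene, was higher in NP.P than in NP rats. Probe set 1367571_a_at had signals of 15066, 20024, 20674, 21652 and 17423 in NP.P rats, against 11152, 14825, 10355, 10080 and 9729 in NP rats. No NP rat reached the lowest NP.P rat, with NP replicate 2 the closest. In P.NP rats the signals were 12918, 16497, 14272, 12740 and 14537, against 7971, 14124, 16454, 14513 and 13118 in P rats, and these overlapped. The means were 18968 ± 2685 in NP.P, 14193 ± 1514 in P.NP, 13236 ± 3182 in P and 11228 ± 2078 in NP rats (SD, n = 5 each; F test, adjusted p = 0.0189). The log2 difference of NP.P minus NP was 0.76 (SE 0.16, adjusted p = 0.0321), or 1.70 times. P.NP minus P was 0.14 (95% interval -0.21 to 0.48, adjusted p = 0.932). The effect of the P segment was smaller on the P background by 0.90, a difference that did not pass the test (interaction -0.90, SE 0.23, adjusted p = 0.146). Without NP.P replicate 4 the adjusted p of NP.P minus NP was 0.101, and with the methods' t-test it was 0.184. The other 3 Igf2 probe sets were under the filter, with array signals of 6.90 to 148. H19, the imprinted RNA gene next to Igf2 and named here after its values were seen, had 0.37 in NP.P minus NP (SE 0.14, adjusted p = 0.253).

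Some marker lists of other cell types moved in NP.P rats beside the differences of Igf1, Igf2 and Igfbp5, and those given first were picked for that shift. The adipocyte list, with 5 of 6 genes above the filter and Lep under it, had a mean centred log2 signal of 0.08 to 0.51 in NP.P rats and -0.30 to 0.24 in NP rats. The erythroid list (5 genes with a probe set, all above the filter) ran from 0.12 to 0.25 in NP.P and from -0.15 to 0.09 in NP rats, and the megakaryocyte list (4 of 4) from -0.36 to 0.12 in NP.P and from 0.25 to 0.44 in NP rats. The periosteum and fibroblast list (4 of 4) ran from -0.21 to -0.08 in NP.P and from -0.11 to 0.05 in NP rats. The 2 of 4 B lymphoid genes with a probe set ran from -0.64 to 0.01 in NP.P and from -0.10 to 0.38 in NP rats. The granulocyte list (4 genes with a probe set) ran from 0.16 to 0.45 in NP.P and from 0.48 to 0.71 in NP rats. Within this list Lcn2 had by far the widest range of signals. Erythroid, megakaryocyte and granulocyte levels thus did not overlap between NP.P and NP rats, and none of these lists had all its genes under the filter. Their part in the Igf1, Igf2 and Igfbp5 results was not tested. In whole bone, fewer cells of a type and less RNA per cell cannot be told apart. Liver is the main source of circulating IGF1, and of 5 liver markers only Ttr and Serpina1 passed the filter, while Alb averaged a signal of 98.2.

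The receptors of the ligands gave 1 call in all comparisons together. Igf1r, the kinase receptor through which both ligands signal, averaged 525 ± 87.4 in NP.P, 468 ± 57.0 in P.NP, 483 ± 99.99 in P and 425 ± 77.3 in NP rats on 1368123_at (F test, adjusted p = 0.469). On that probe set the NP.P minus NP difference was 0.31 (95% interval -0.00 to 0.62, adjusted p = 0.382). On 1392492_at it averaged 926 ± 102 in NP.P, 779 ± 101 in P.NP, 901 ± 71.8 in P and 893 ± 179 in NP rats (F test, adjusted p = 0.391). Neither probe set passed any test.

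Igf2r, the clearance receptor for IGF2, passed only the background contrast, and only on 1367636_at. That probe set averaged 2227 ± 138 in P.NP and 2062 ± 81.6 in P rats, against 1977 ± 74.2 in NP.P and 1940 ± 214 in NP rats. Its log2 difference of P background minus NP background was 0.13 (SE 0.05, adjusted p = 0.0851), and the ranges overlapped. The call was lost in 16 of 27 alternatives, 12 of them the removal of a single array, with adjusted p up to 0.158. Probe set 1386872_at ran the other way, with a background difference of -0.09 (SE 0.09, adjusted p = 0.503), and averaged 2910 ± 249 in NP.P, 2513 ± 380 in P.NP, 3199 ± 495 in P and 3124 ± 419 in NP rats (F test, adjusted p = 0.173). The F test of 1386872_at passed without NP replicate 1 (0.0815), without P replicate 1 (0.0832) or without P.NP replicate 1 (0.0941).

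Igfbp4, a binding protein known to restrain IGF action on osteoblasts, followed the background and not the segment. Its only probe set, 1371462_at, had signals of 1110, 1191, 1211, 1371 and 1437 in P.NP rats and 1196, 967, 1179, 1169 and 1313 in P rats. They were 1816, 1816, 1471, 1720 and 1786 in NP.P rats and 1891, 1388, 1803, 1609 and 1809 in NP rats. Only NP replicate 2, at 1388, was below a rat of the P background, P.NP replicate 5. The mean was 1264 ± 135 in P.NP and 1165 ± 125 in P rats, against 1722 ± 145 in NP.P and 1700 ± 203 in NP rats (SD, n = 5 each). In the order of means NP.P and NP overlapped, and so did P.NP and P. P background minus NP background was -0.50 (SE 0.07, adjusted p = 7.46e-05), a signal 0.709 times that of the NP background. P minus NP was -0.54 (SE 0.10, adjusted p = 0.00259), with no overlap between the strains.

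Neither segment comparison of Igfbp4 passed the test. NP.P minus NP was 0.02 (95% interval -0.19 to 0.23, adjusted p = 0.957) and P.NP minus P was 0.12 (95% interval -0.09 to 0.33, adjusted p = 0.867). Beside this gene, the mean level of the granulocyte list also differed by background, over its 4 of 6 genes with a probe set, all above the filter. This mean centred log2 signal ran from -0.70 to -0.28 in P.NP and from -0.51 to -0.28 in P rats. In NP.P rats it ran from 0.16 to 0.45 and in NP rats from 0.48 to 0.71. Within that list Lcn2 had the widest range, with signals of 756 to 15157 over the 20 arrays, and Mpo and Elane had no probe set. Camp ran from 10684 to 17847, S100a8 from 29188 to 44014 and S100a9 from 54057 to 74861. Most of the gap in the list mean between the backgrounds therefore came from Lcn2 alone. Whether the other genes of the list differed by background was not tested. The part of granulocytes in the Igfbp4 result was not tested.

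**Figure D3:**
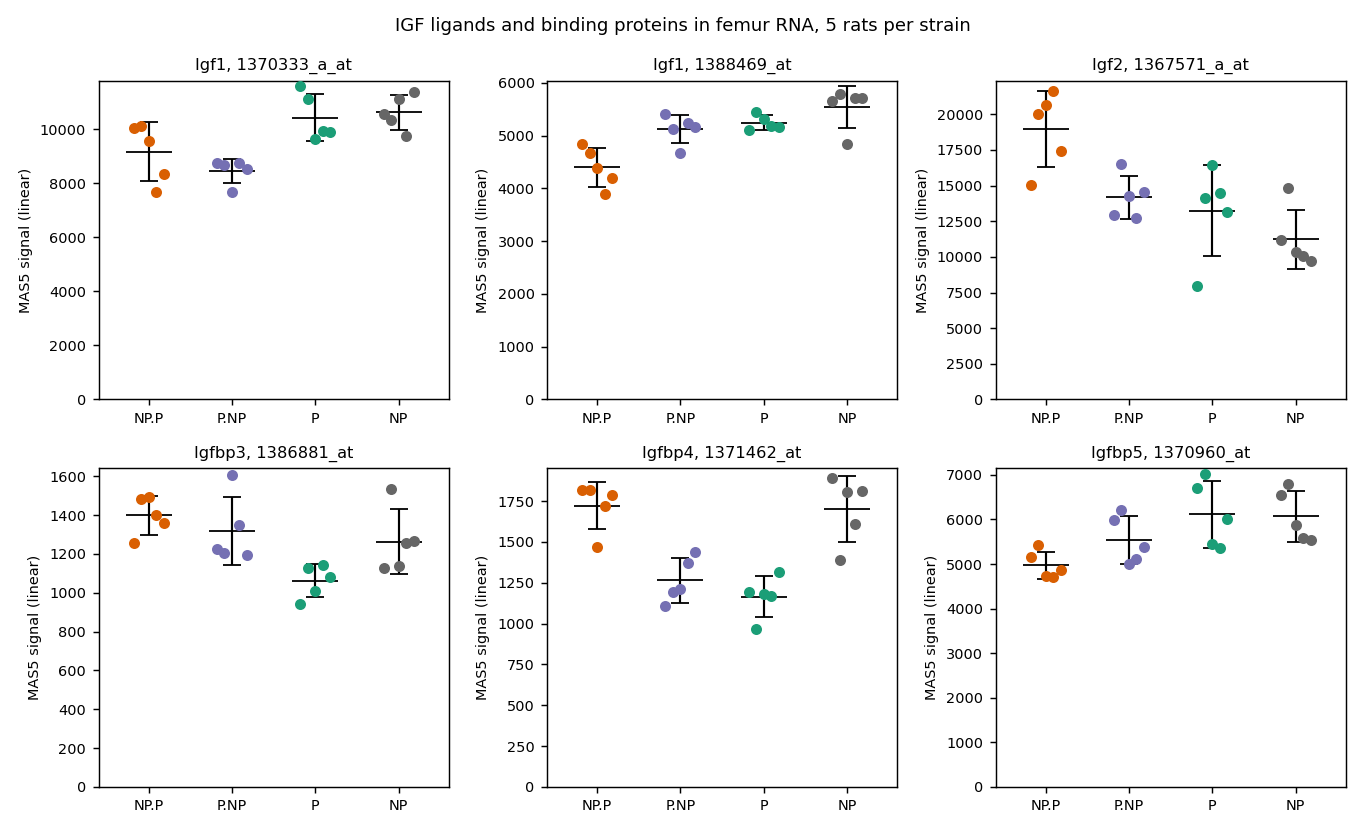
Signals of the 6 probe sets of IGF ligands and binding proteins that passed the F test. The vertical axes are linear MAS5 signals, each point is 1 rat, and lines and bars are the mean and SD of 5 rats per strain; Igfbp4 splits by background (1264 and 1165 in P.NP and P, 1722 and 1700 in NP.P and NP), while NP.P alone is lowest for Igf1 1388469_at and highest for Igf2.

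Igfbp3, the main carrier of circulating IGFs, differed among the strains on 1386881_at (F test, adjusted p = 0.0402). Its signals were 1223, 1207, 1608, 1352 and 1195 in P.NP rats, against 944, 1130, 1009, 1144 and 1083 in P rats. They were 1256, 1483, 1496, 1399 and 1358 in NP.P rats, against 1126, 1537, 1136, 1256 and 1266 in NP rats. Every P.NP rat was above every P rat, while NP.P and NP rats overlapped. P.NP minus P was 0.30 (SE 0.10, adjusted p = 0.378) and P minus NP was -0.25 (SE 0.10, adjusted p = 0.209), and no single contrast passed. The F test gave 0.106 without P replicate 1, the lowest array. On 1367652_at Igfbp3 averaged 459 ± 90.4 in NP.P, 359 ± 109.9 in P.NP, 405 ± 84.1 in P and 474 ± 115 in NP rats (F test, adjusted p = 0.429).

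Igfbp5, the binding protein known for its abundance in bone matrix, passed the F test on 1370960_at by a small margin (adjusted p = 0.0869). Its signals were 5147, 5424, 4726, 4715 and 4858 in NP.P rats, against 6547, 6791, 5881, 5584 and 5548 in NP rats. They were 5987, 6219, 5010, 5120 and 5387 in P.NP rats, against 6716, 7028, 5456, 5353 and 6011 in P rats. Every NP.P rat was below every NP rat, whereas P.NP and P rats overlapped. Against their background strains, NP.P minus NP was -0.28 (SE 0.09, adjusted p = 0.146) and P.NP minus P was -0.14 (SE 0.09, adjusted p = 0.805), and neither passed. The F test call was lost without filter (0.177) and when any 1 of 12 arrays was left out, with adjusted p up to 0.181. With the replicate number as a block the F test gave an adjusted p of 0.00564. The other tested probe set, 1387348_at, averaged 1107 ± 402 in NP.P, 1060 ± 240 in P.NP, 1374 ± 518 in P and 1221 ± 291 in NP rats (adjusted p = 0.728), and 3 further ones were under the filter, with array signals of 17.2 to 334.

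Igfbp6, which binds IGF2 in preference to IGF1, passed no test. On 1372168_s_at it averaged 2397 ± 330 in NP.P, 2670 ± 155 in P.NP, 2785 ± 319 in P and 2499 ± 510 in NP rats (F test, adjusted p = 0.53). On 1387625_at it averaged 2223 ± 433 in NP.P, 2556 ± 200 in P.NP, 2595 ± 381 in P and 2390 ± 673 in NP rats (adjusted p = 0.614). Both probe sets had the same order of strain means, and the widest spread of both was among NP rats.

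**Figure D4:**
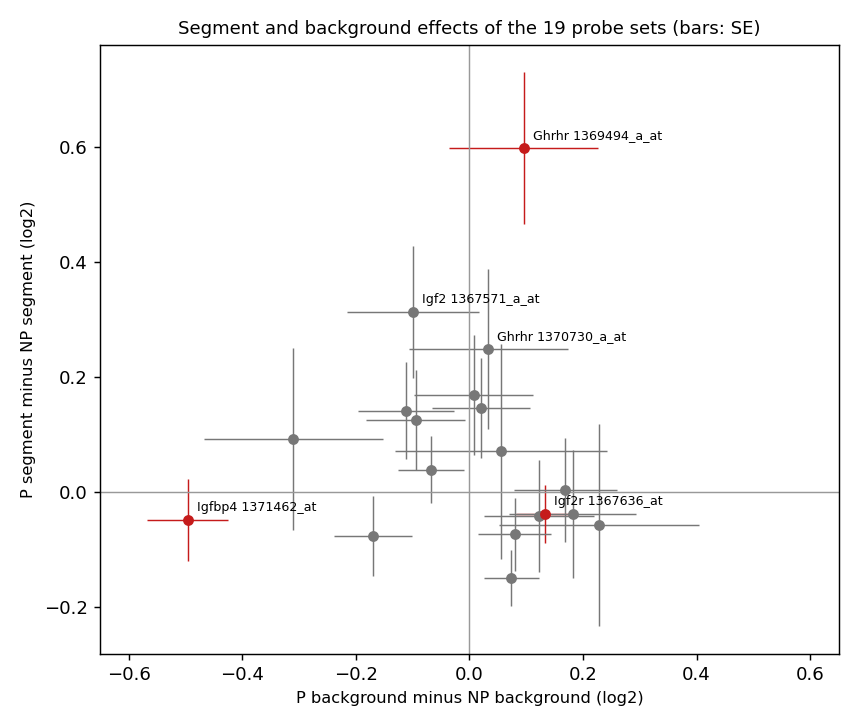
Segment difference (vertical axis, log2, P segment minus NP segment) against background difference (horizontal axis, log2, P background minus NP background) for the 19 tested probe sets. Points are fitted values with bars of 1 SE, red where either contrast passed the 10% threshold; Ghrhr 1369494_a_at stands out on the vertical axis at 0.60 and Igfbp4 on the horizontal axis at -0.50.

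Further genes of the pathway were read from a list of 45, of which 44 had a probe set and 28 passed the filter. None of the 5 genes for ligands and pituitary control (Ghrh, Gh1, Ghrl, Sst and Pou1f1) passed the filter. The F test was passed by 6 of the 28, against 18.2% of all tested probe sets, namely 1 of 3 receptors and 5 of 18 signalling genes, and by none of the 2 carriers, 2 protease genes, 2 mRNA binding genes or H19. In limma no gene of the list passed for the segment (0.886% of all tested probe sets), the interaction (0.317%) or P.NP minus P (0.231%). With shares this low, no call among 28 genes says little about the list. At an unadjusted p under 0.05 there were 2, 3 and 2 genes, a cut at which the share of all probe sets was not computed. The methods' t-test called no probe set of the array in P.NP minus P. For P background minus NP background 2 were higher and 4 lower, and with 22.5% of all tested probe sets called in that contrast these 6 of 28 are no more than the background share.

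Cish, which encodes an inhibitor of STAT5 signalling that growth hormone induces, averaged 352 ± 111 in P.NP and 384 ± 111 in P rats, against 891 ± 351 in NP.P and 517 ± 124 in NP rats. Its background difference was -0.87 (SE 0.19, adjusted p = 0.00315), and NP.P minus NP was 0.73 (SE 0.26, adjusted p = 0.208). P minus NP was -0.44 (SE 0.26, adjusted p = 0.435) and did not pass. Sstr2, a receptor for somatostatin, was lower on the P background (-0.67, SE 0.20, adjusted p = 0.0298), as was Pik3r1, the regulatory subunit of PI3 kinase (-0.43, SE 0.12, adjusted p = 0.016). Ptpn11, the phosphatase SHP2, was higher on the P background (0.34, SE 0.06, adjusted p = 0.000563) and in P than in NP rats (0.27, SE 0.08, adjusted p = 0.0879). Pik3ca, the catalytic subunit of PI3 kinase, was also higher on the P background (0.29, SE 0.07, adjusted p = 0.00567), so the subunits of this enzyme ran in opposite directions.

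In NP.P minus NP, where 2.3% of all tested probe sets passed, Foxo3 was the only gene of the list to pass. Foxo3 encodes a transcription factor held in check by IGF and AKT signalling. It averaged 11389 ± 543 in NP.P, 8959 ± 518 in P.NP, 8761 ± 650 in P and 9363 ± 691 in NP rats. NP.P minus NP was 0.28 (SE 0.07, adjusted p = 0.0574) and P.NP minus P was 0.03 (SE 0.07, adjusted p = 0.969). The background difference, which averages NP.P with NP rats, was -0.22 (SE 0.05, adjusted p = 0.00394). P minus NP was -0.10 (SE 0.07, adjusted p = 0.528) and did not pass. Like Igf2, Foxo3 had its highest mean in NP.P rats.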

How the data were processed

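RNA of 20 femurs was measured on 1 array per rat. The authors deposited MAS5 signal intensities on a linear scale, scaled to a common trimmed mean per array (MAS5 is named in the submitters' processing notes). Their own tests used robust multichip averages and present calls, not used here, and no scan or hybridization batch was used. After removal of 57 control probe sets, 190 values under 1 were raised to 1 and log2 was taken. Of the 31042 others, 20826 had 1 gene symbol, 436 several and 9780 none. The filter kept 18625 probe sets whose mean log2 value reached the 40th percentile, a signal of 169.7. Strain means were fitted in one limma 3.58.1 model in R 4.3.3 (16 residual and 2.78 prior degrees of freedom), with an F test and 6 contrasts, Benjamini-Hochberg adjustment and a threshold of 10%. Folds are ratios of geometric means. The tests set differences of strain means against the spread within strains, which holds rat and array variation together, with 1 array per rat. The number of arrays limits the precision. Levels were compared between strains within a probe set, never between probe sets. All probe sets of the members are described. Other list genes were represented by their brightest probe set and named where they passed a test, neighbours are the 6 genes on each side, and likeness was ranked by Pearson's r. Marker levels are means of centred log2 signals over the genes of a list that passed the filter. Sequences, names and gene order came from RefSeq (GRCr8), where all 10 members matched. The fit was tested on simulated data. The members, lists and tests were chosen with earlier results of these data known. As alternatives, the filter was dropped or set at the 60th percentile, arrays were quantile normalized, an offset of 21.66 preceded the log, the variance was allowed a trend on the mean, the threshold was set at 5%, 2 strains were fitted alone, the methods' t-test was run, replicate number entered as a block, and single arrays were left out.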

Additional observations from a re-analysis of the deposited data

Results flagged for a closer look

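Within the 5 rats of a strain, 7 of 76 combinations of strain and tested probe set had a rat set apart by Dixon's ratio, the gap to the nearest rat over the whole range; chance gives about 1 in 20. For Ghrhr 1370730_a_at, NP.P replicate 5 had a signal of 311 (ratio 0.863), and P.NP replicate 3 had 262 (ratio 0.75). For Ghr 1373803_a_at, NP replicate 2 had 984 (ratio 0.773). For Igf1 1370333_a_at, P.NP replicate 3 had 7675 (ratio 0.802), and for Igf1 1388469_at, NP replicate 3 had 4832 (ratio 0.869). For Igfbp4, NP.P replicate 3 had 1471 (ratio 0.744), and for Igfbp6 1387625_at, NP replicate 2 had 3568 (ratio 0.73). Among NP rats, replicate 2 also had the lowest levels of the osteocyte (-0.66), cartilage (-0.60) and osteoclast (-0.62) marker lists. Its skeletal muscle level (0.42) was the highest of the NP rats. The part of tissue content in the signals of this rat was not tested.

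The effect of the chromosome 4 segment on Igf1 1370333_a_at differed between the backgrounds in limma's interaction test (adjusted p = 0.0945): the congenic strain was below its background strain in both cases, by 0.22 for NP.P minus NP and by 0.30 for P.NP minus P on the log2 scale.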

How the results depend on the processing

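Of 906 values of single probe sets under the alternatives, 836 kept their side of the threshold, 64 fell below it and 6 passed it. No difference changed direction. The F test values among the 906 have no direction. Only quantile normalization, the offset and the removal of an array could change the sign of a difference, since the other alternatives leave it as it was. Igfbp4 kept its F test, P minus NP and background calls under every alternative run. Counts of the members' probe sets called moved as follows. With no filter the count was 0 for the segment, 1 for the background and 0 for the interaction. With the filter at the 60th percentile it was 1 for P minus NP, 0 for the segment and 3 for the interaction; Ghrhr 1369494_a_at, with a mean signal below that filter, was then not tested. A mean-variance trend gave 3 for the interaction. At a 5% threshold the count was 0 for the segment, 1 for the background and 0 for the interaction. Fits of 2 strains alone gave 1 for P minus NP and 1 for NP.P minus NP. The methods' t-test, which the methods use for the congenic comparisons and not for P minus NP, gave 1 for P minus NP. For NP.P minus NP it gave 0, with 5 at an unadjusted p under 0.05, a cut without a computed share of all probe sets. Leaving out 1 array gave 6 to 8 for the F test, 1 to 2 for P minus NP, 1 to 2 for NP.P minus NP, 0 to 0 for P.NP minus P, 0 to 2 for the segment, 1 to 3 for the background and 0 to 3 for the interaction. The causes of these shifts were not tested.

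The labels do not say whether rats of equal replicate number shared a batch. Deviations of such rats correlated from -0.022 to 0.33 in P and NP, with 1 of 5 pairs over 0.1. The range was -0.089 to 0.1 in NP.P and NP (0 of 5) and 0.0042 to 0.26 in P.NP and P rats (2 of 5). For Igfbp5 1370960_at, replicates 1 and 2 had the highest signals in every strain. In the cartilage marker list, replicate 2 had the lowest level in NP (-0.60), P (-1.78) and P.NP rats (-0.47). In the same strains it was lowest for the osteoclast list (-0.62, -0.52 and -0.19) and highest for skeletal muscle (0.42, 0.31 and 0.33). This did not hold in NP.P rats, where the cartilage level of replicate 2 was 0.27. By correlation, a shared replicate effect was thus weak in most pairs but was not excluded. The part of tissue content in it was not tested. With the replicate number as a block, the counts were 7 for the F test, 2 for P minus NP, 3 for NP.P minus NP, 0 for P.NP minus P, 1 for the segment, 2 for the background and 1 for the interaction. Under the block the calls of Igf2r 1367636_at for the background (adjusted p = 0.105) and Igf1 1370333_a_at for the interaction (0.102) were lost, while Igfbp3 1386881_at passed for the background (0.0847) and Igfbp5 1370960_at for NP.P minus NP (0.0292) and the interaction (0.0493). Signals near the filter, as for Ghr 1368924_at, leave wide intervals.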
